A study of Mus musculus with 2 samples.

Results

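Sox5-positive B cells were taken as cell barcodes that carried B-cell transcripts and at least 1 unique molecular identifier (UMI, a tag that marks one captured RNA molecule) of Sox5. A barcode had to have at least 200 detected genes, at most 20% mitochondrial and at most 10% haemoglobin UMIs. It needed at least 2 UMIs over Cd79a, Cd79b and Ms4a1, at least 1 over Pax5, Ebf1 and Bank1, and none of Cd3d, Cd3e, Cd3g, Siglech or Csf1r. The cells were thus selected on their measured B-cell and Sox5 UMIs. The rule found 312 cells (89 WT and 223 KO) among 1784 gated B cells and 27478 barcodes that passed the quality limits. No barcode was found in both sets of Sox5-positive cells, although 53 of the barcodes that passed the limits occurred in both libraries.

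The data are droplet single-cell RNA counts from 1 WT and 1 KO mouse library. The WT library came from Alb-WT Bicd2fl/fl mice and the KO library from Alb-Cre Bicd2fl/fl mice, so both groups carry the floxed Bicd2 allele. Both were immunised with the S-100 fraction of liver in complete Freund's adjuvant, at 2.5 mg by intraperitoneal injection once a week for 3 weeks, as a model of autoimmune hepatitis. The albumin promoter drives Cre in hepatocytes and not in B cells, the sorted cells were pooled, and neither the number of mice behind a library nor their age is given in the sources used here. The labels disagree on the material: the series text and protocol describe immune cells isolated from liver over Percoll, whereas sample tags name peritoneal immune cells and an HFD treatment. Bicd2, which encodes a dynein adaptor, had 24.1 CPM (CPM here being the UMIs of a gene with every cell set scaled to the same total) in WT and 23.3 CPM in KO Sox5-positive cells, from 9 and 17 UMIs. This does not check the deletion, which was directed to another cell type.

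Sox5 encodes a SoxD transcription factor that binds DNA through an HMG box and has no activation domain of its own, and it is best known from cartilage and the nervous system. B cells recognise antigen through surface immunoglobulin and are broadly divided into follicular cells, marginal zone cells and B-1 cells. B-1 cells are abundant in body cavities, make natural IgM and are marked in mice by genes such as Zbtb32, Bhlhe41 and Plac8. S100a6 encodes a calcium-binding protein, and Agbl1 encodes a carboxypeptidase that removes glutamates from tubulin and other proteins. These 2 genes were examined beside Sox5 because earlier results of these data had placed them there, so their levels are given as a description.

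The B-cell label was checked on genes that the rule did not use. All 15 genes of this B lineage list were detected in the Sox5-positive cells, and none of them differed from Sox5-negative B cells by the criterion defined below. Transcripts of other cells were also present. Summed over 9 neutrophil genes, none of them at 0, Sox5-positive cells had 29146 CPM in WT and 1512 CPM in KO, against 11070 and 1337 CPM for Sox5-negative B cells. Neutrophil genes took more than 2% of the UMIs in 12 of 89 WT cells and 6 of 223 KO cells, and all of these were among the 14 WT and 17 KO cells that the doublet caller Scrublet marked. Haemoglobin and other erythroid genes summed to 6486 CPM in WT and 13748 CPM in KO cells. Monocyte genes summed to 750 and 108 CPM with 6 of 11 at 0 in each library, 1 of which (Csf1r) the rule itself required to be 0, hepatocyte genes summed to 5.36 and 26.0 CPM, and 9 of 10 endothelial and stromal genes were at 0.

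Sox5-positive cells made up a larger share of B cells in KO than in WT, by a margin close to counting error. They were 14.9% of the 598 gated B cells in WT (95% Clopper-Pearson interval 12.1% to 18.0%) and 18.8% of the 1186 in KO (16.6% to 21.1%). The KO share was 1.26 times the WT share, with a counting interval of 1.01 to 1.58. Because each group is 1 library, no test between groups was possible, and every interval here covers counting error only.

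Gated B cells themselves were 3.59% of barcodes past those limits in WT and 10.97% in KO. Sox5-positive B cells were therefore 0.534% (0.429% to 0.657%) of barcodes past the quality limits in WT and 2.06% (1.80% to 2.35%) in KO. Depth differed little between the Sox5-positive sets, with a median of 2905 UMIs for WT cells (range 570 to 20244) and 2668 for KO cells (522 to 26850). Sox5-negative B cells were shallower, with medians of 2325 and 1629 UMIs. When every B cell was thinned to 1000 UMIs, which left out shallower cells, the shares were 10.9% (60 of 550) and 15.5% (159 of 1025), a ratio of 1.42 (1.08 to 1.88). Without Scrublet-marked cells the ratio was 1.29 (1.02 to 1.65). The interval reached below 1 when 2 Sox5 UMIs were required (1.28, 0.964 to 1.70) or 2 UMIs over Pax5, Ebf1 and Bank1 (1.25, 0.997 to 1.56).

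Background of Sox5 in other cells was low. A Sox5 UMI was found in 1.82% of WT and 1.17% of KO T cells, at median depths of 3513 and 2411 UMIs. Among neutrophils the shares were 0.332% and 0.387%, at 2030 and 1026 UMIs. Both are far below the shares in gated B cells of the same library.

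The share of B cells with Sox5 moved with haemoglobin content in the KO library. Among KO B cells with at most 1% haemoglobin UMIs, 60.7% (34 of 56) had Sox5, at a median of 4526 UMIs per cell. Between 1% and 2% haemoglobin the share was 25.7% (148 of 576) at 2186 UMIs, and between 2% and 5% it was 7.10% (37 of 521) at 1290 UMIs. WT values were flatter, at 15.3%, 12.6% and 9.09% in the same ranges. From 5% to 10% the shares were 42.9% (3 of 7) in WT and 12.1% (4 of 33) in KO. Median depth moved with haemoglobin too, and the part of either in the share was not tested. Restricted to at most 1% haemoglobin, the KO share was 3.96 times the WT share (2.93 to 5.36), so the size of the WT to KO difference rests on where this limit is put.

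**Figure D1:**
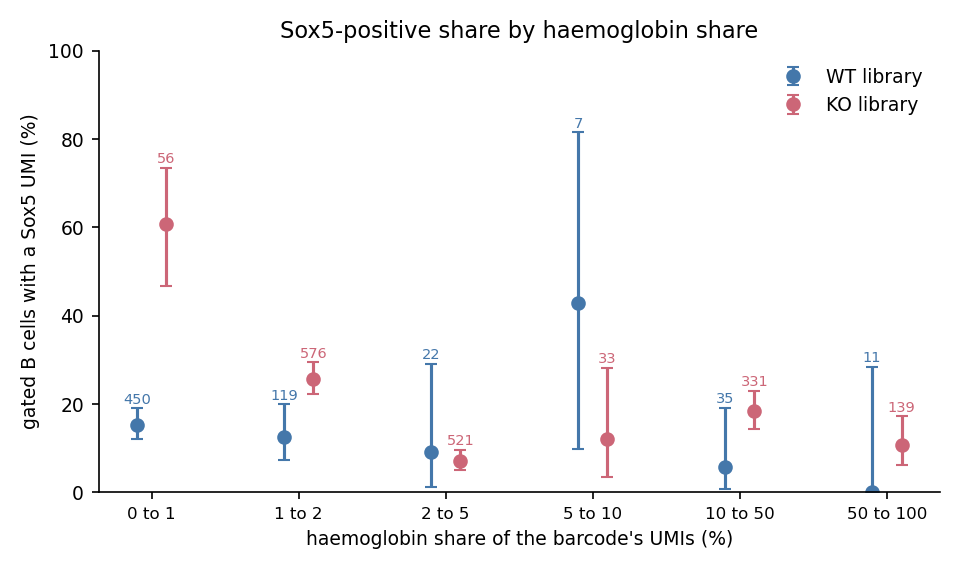
Share of gated B cells with at least 1 Sox5 UMI (y axis, percent) by the percentage of a cell's UMIs from haemoglobin genes (x axis), with 95% Clopper-Pearson intervals and the number of cells, WT in blue and KO in red. The KO share is 60.7% in the lowest range and 7.10% between 2% and 5%, whereas WT lies between 9.09% and 15.3% over the same ranges.

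Sox5 itself was present at few molecules in most of these cells. Its median was 2 UMIs in WT cells and 3 in KO cells, and the highest cells had 47 and 42. Exactly 1 UMI was found in 30 WT and 73 KO cells, 2 UMIs in 18 and 31, and 3 or more in 41 and 119. Pooled over cells, Sox5 stood at 1029 CPM (928 to 1137) for WT and 1404 CPM (1319 to 1493) for KO. The related SoxD genes Sox6 and Sox13 had no UMI in any Sox5-positive cell, which allows a captured UMI in up to 3.37% of WT and 1.35% of KO cells and sets no limit on cells that express them.

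S100a6 was more abundant in Sox5-positive than in Sox5-negative B cells of both libraries. It stood at 1439 against 502 CPM in WT and 1786 against 295 CPM in KO, which is 2.87 times (2.56 to 3.22) and 6.06 times (5.48 to 6.72) the level without Sox5. An S100a6 UMI was found in 61.8% of WT and 54.3% of KO cells with Sox5, and in 36.1% and 17.5% of those without. After thinning to 1000 UMIs these shares were 34.9% and 39.9% with Sox5, and 20.3% and 10.9% without. The WT level rests on few cells: 4 of 89 held 362 of the 537 S100a6 UMIs. With the 4 highest cells left out of every set, S100a6 stood at 531 against 343 CPM in WT, which is under the 2-fold limit, and at 1487 against 194 CPM in KO. Among cells with at most 1% haemoglobin the KO log2 difference was 0.80, against 2.60 over all cells. S100a6 is not particular to B cells, since it was found in 78.0% of WT T cells and 96.4% of WT neutrophils.

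Agbl1 showed the same order at a lower level. It had 279 against 51.5 CPM in WT and 415 against 91.5 CPM in KO, 5.41 times (3.96 to 7.43) and 4.53 times (3.74 to 5.51) the level without Sox5. A UMI was present in 23.6% and 22.9% of Sox5-positive cells, compared with 3.34% and 5.19% of Sox5-negative ones. In T cells the shares were 0.377% and 0.536%. Both S100a6 and Agbl1 were detected in 15.7% of WT and 16.6% of KO Sox5-positive cells, and neither in 30.3% and 39.5%.

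At the threshold of the rule, cells with 1 Sox5 UMI were compared with those just outside it and with those that had more. In KO, S100a6 was found in 17.5% of cells with no Sox5 UMI, 34.2% with 1, 41.9% with 2 and 69.7% with 3 or more. In WT the values were 36.1%, 63.3%, 44.4% and 68.3%, with no steady order. Agbl1 was found in 5.19%, 10.96%, 16.1% and 31.9% of KO cells and in 3.34%, 16.7%, 22.2% and 29.3% of WT cells over the same steps. Deeper cells are more likely to show a UMI of any gene. With every cell thinned to 1000 UMIs, the KO shares kept their order, at 3.59%, 8.45%, 16.7% and 23.9% for Agbl1 and 10.9%, 21.1%, 23.3% and 55.6% for S100a6. In WT the thinned shares had no steady order, at 2.57%, 14.3%, 17.6% and 10.5% for Agbl1 and 20.3%, 32.1%, 23.5% and 42.1% for S100a6.

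**Figure D2:**
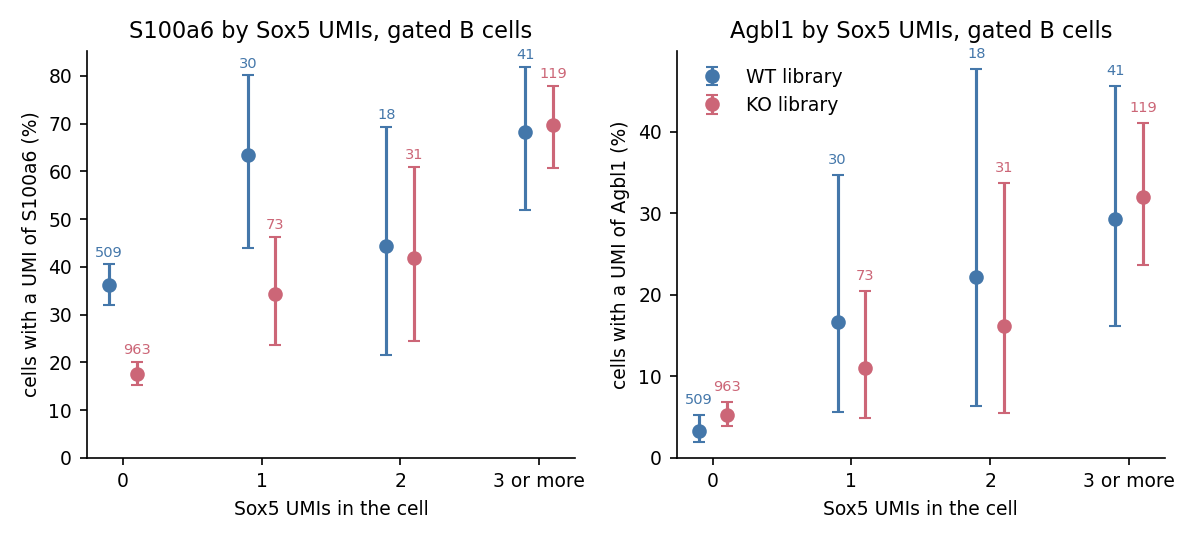
Share of gated B cells with at least 1 UMI of S100a6 or of Agbl1 (y axis, percent) by the number of Sox5 UMIs in the cell (x axis), with 95% Clopper-Pearson intervals and cell numbers, WT in blue and KO in red. Agbl1 is found in 3.34% and 5.19% of cells with no Sox5 UMI and in 29.3% and 31.9% of cells with 3 or more.

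Beyond Agbl1 and S100a6, Sox5-positive B cells carried more RNA of genes such as Tppp3, Lmo7, Crip1, Cd9 and Fcrl5 than Sox5-negative B cells, and less of genes such as Fcer2a, Satb1 and Zfp318. UMIs were summed per group, and a gene was called where its CPM plus 1 differed at least 2-fold and the 95% counting interval of the ratio excluded 1, among genes with at least 20 UMIs. By this criterion 51 genes (0.639% of 7979) were called higher and 34 (0.426%) lower in both libraries. With normalization by edgeR's TMM factors the counts were 62 and 22, and with DESeq2 size factors 63 and 22. In the WT library alone 3.19% of genes were called higher and 3.0% lower, and in the KO library 3.23% and 2.54%. Sox5 was used to split the cells, so these values describe the split and were not tested over samples.

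The genes most like Sox5, ranked by the smaller of their 2 log2 differences, began with Tppp3, which encodes a tubulin polymerisation-promoting protein. Tppp3 had 85.7 CPM with Sox5 and 5.89 CPM without in WT, and 78.0 and 6.69 CPM in KO. Its ratio was 14.6 (6.57 to 36.6) in WT and 11.7 (6.18 to 23.9) in KO. Lmo7, which encodes a LIM domain protein of cell junctions, followed with 72.3 against 10.3 CPM and 62.9 against 6.69 CPM. Agbl1 was the third and Ypel2 the fourth, the latter at 91.1 against 23.5 CPM and 146 against 35.1 CPM.

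Crip1, a small LIM domain protein, was among the most abundant of these genes. It had 1039 against 270 CPM in WT (ratio 3.85, 3.33 to 4.45) and 1717 against 462 CPM in KO (3.72, 3.40 to 4.06). Cd9 encodes a tetraspanin found on marginal zone and B-1 cells, and had 134 against 40.5 CPM in WT and 65.7 against 17.3 CPM in KO. Fcrl5 encodes an Fc receptor-like protein of innate-like B cells. It was found in 36.0% of WT and 35.4% of KO Sox5-positive cells and in 9.63% and 4.57% of the others, with ratios of 3.13 (2.27 to 4.33) and 7.63 (5.83 to 10.1). Tbc1d9, Pdlim1, Sorcs2 and Pde8a had log2 differences between 1.44 and 2.44 and, with S100a6, completed the 12 leading genes.

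Among the genes lower with Sox5, Fcer2a encodes CD23, the low-affinity IgE receptor of follicular B cells. It had 53.6 against 225 CPM in WT, 4.20 times lower (2.67 to 6.98), and 103 against 258 CPM in KO, 2.52 times lower (1.97 to 3.26). Satb1, a chromatin organiser, had 212 against 549 CPM and 216 against 788 CPM. Zfp318, which is needed for IgD expression, had 115 against 329 CPM and 83.5 against 257 CPM. Icosl, the ligand of the T-cell costimulator ICOS, had 24.1 against 92.7 CPM and 24.6 against 69.7 CPM. Stat4, Ssbp2, Rras2, Pip5k1b, Pxdc1, Mapk11, Panx1 and Smad7 were also in this group.

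The calls were repeated with other sets of cells. All 12 higher and 12 lower genes kept their calls when Scrublet-marked cells, dividing cells, or each gene's cell with the most UMIs were left out. Against Sox5-negative cells matched on UMIs, 11 of the 12 higher genes kept their calls, all but Tbc1d9, and 4 of the 12 lower ones did, namely Icosl, Satb1, Pip5k1b and Rras2. With every cell thinned to 1000 UMIs, 5 of 12 kept their calls in each direction. The total number of genes called in both libraries was also smaller with matching, at 31 higher and 14 lower.

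**Figure D3:**
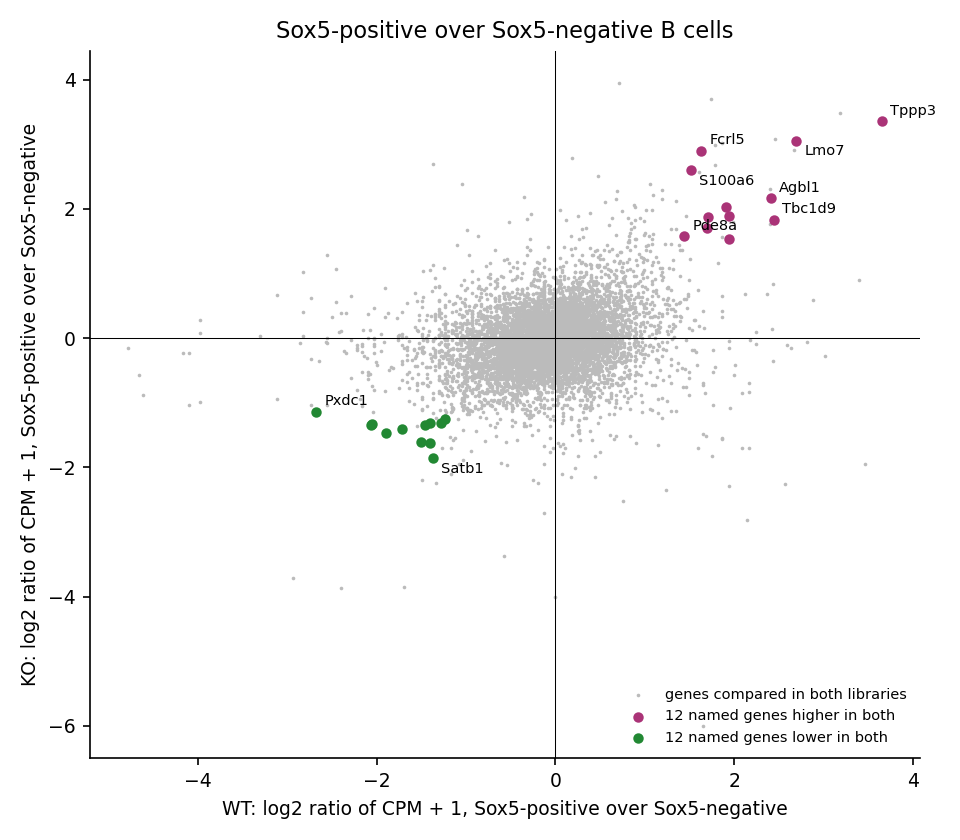
Log2 ratio of Sox5-positive over Sox5-negative B cells in WT (x axis) and KO (y axis), 1 point per gene, with the 12 leading higher genes in purple and the 12 leading lower genes in green. Tppp3 lies at 3.66 in WT and 3.36 in KO, and Fcer2a at -2.05 and -1.32.

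The promoters of the leading genes were searched for AACAAT, a core sequence bound by SOX proteins, because they differ together with a SOX factor. The window was 250 bases upstream of each RefSeq start (build GRCm38.p6), read on both strands. Of all 32851 promoters, 9.42% held the sequence. Of the leading higher genes it was found in 2 of the 10 with an entry, Fcrl5 and Tbc1d9, and of the leading lower genes in 1 of 10, Fcer2a. A leading gene was counted if any of its listed promoters held the sequence, so these counts and the share of promoters are unlike measures. The matches are shown with 10 flanking bases and the match in capitals, each along the strand of its gene. In Fcer2a the match reads on the opposite strand.
Fcrl5, chr3:87435534-87435559, plus strand, 238 bases before the start: gtgttaccgtAACAATcccacagcca
Fcrl5, chr3:87435726-87435751, plus strand, 46 bases before the start: gaaactaattAACAATtaaatgcggc
Tbc1d9, chr8:83165112-83165137, plus strand, 230 bases before the start: caaacaaacaAACAATgctagtgtcc
Fcer2a, chr8:3690438-3690463, minus strand, 63 bases before the start: agtcagacccATTGTTtgctggagtg
Such matches are a description of letters and not of binding. These letters were not in the windows of S100a6 and Agbl1.

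Genes of B-1 and innate-like B cells were higher with Sox5 as a group. Of the 22 genes compared in WT, 21 were higher, 10 were called higher and 1 was called lower, with a median log2 difference of 0.93 where the median over all genes was -0.10. In KO all 22 compared genes were higher, 18 by the criterion, with a median of 1.67 against -0.05 over all genes. The list was chosen with earlier results of these data known. Of the 11 WT calls, 7 were kept without Scrublet-marked cells, 7 against UMI-matched cells and 4 after thinning, and the higher neutrophil sum of WT Sox5-positive cells stands beside them. In the KO library its call count was 11 against UMI-matched cells, and only 8 of 15 genes were higher among cells with at most 1% haemoglobin, where 22 Sox5-negative cells remained.

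Zbtb32, which encodes a transcriptional repressor of B-1 and memory B cells, had 40.2 against 2.21 CPM in WT, where it was below the count minimum, and 62.9 against 2.23 CPM in KO, a ratio of 28.2 (10.3 to 108). Bhlhe41, a transcription factor that B-1 cells need, had 29.5 against 8.09 CPM and 41.1 against 2.23 CPM. Its relative Bhlhe40 was the exception in WT, at 2.68 CPM from 1 UMI against 19.1 CPM. Nid1, Pstpip2 and Itgb1 were called higher in both libraries, as were the list members Crip1, Cd9 and Fcrl5 given above. Ahnak, a large scaffold protein, had 249 against 108 CPM and 638 against 129 CPM.

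Plac8 and the intermediate filament gene Vim were abundant in both sets and differed less. Plac8 had 1002 against 565 CPM in WT and 991 against 353 CPM in KO. Vim had 455 against 236 CPM and 878 against 242 CPM. Cd5, the surface marker of B-1a cells, was low everywhere, at 18.8 against 13.2 CPM and 8.21 against 5.58 CPM, and was not called. Cell division genes were higher with Sox5 in WT for all 18 compared, 10 of them called with a median of 1.76, and in KO 3 of 17 were called lower with a median of -0.44. Dividing cells were defined as those with at least 5 of the 20 genes of that list detected. Without them no gene of the list was called in either library, which the definition partly sets and which is no independent check. Itgam, which encodes CD11b and is also made by neutrophils, had a log2 difference of 1.27 in WT, and of 0.16 without Scrublet-marked cells.

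Follicular and naive B-cell genes mostly went the other way. None of 12 was higher in WT, where 4 were called lower with a median of -0.84. In KO 3 of 13 were higher and 4 were called lower, with a median of -0.87. Over all genes 3.0% were called lower in WT and 2.54% in KO, with medians of -0.10 and -0.05. Fcer2a and Satb1 were called in both libraries. Ighd, which encodes the IgD heavy chain, had 490 against 1164 CPM in WT and 582 against 1161 CPM in KO. Bach2, a repressor of plasma cell formation, had 2403 against 3419 CPM and 1515 against 3044 CPM. After matching on UMIs, 2 of the 4 WT calls and 1 of the 4 KO calls were kept.

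The lists were also counted within single cells at equal depth. At 1000 UMIs per cell, the median number of detected genes of the B-1 and innate-like list was 2 with Sox5 and 1 without in WT, and 3 and 1 in KO. For the follicular list it was 4 with Sox5 and 5 without in both libraries.

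**Figure D4:**
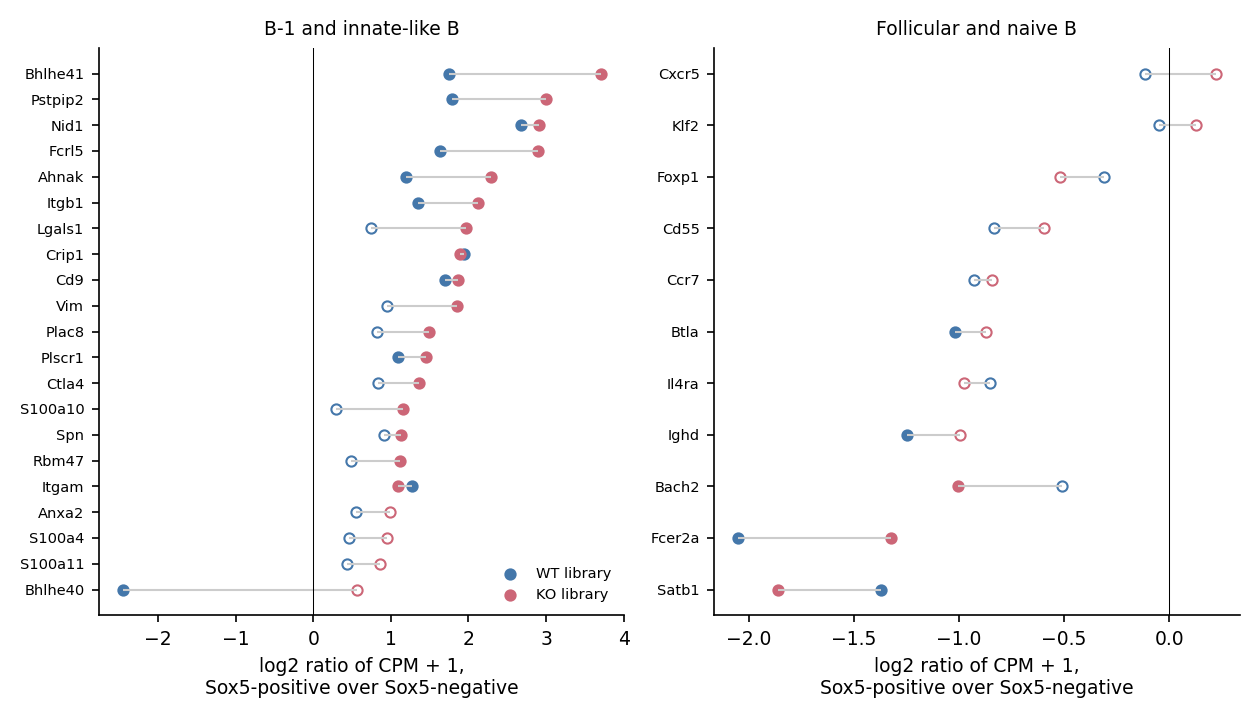
Log2 ratio of Sox5-positive over Sox5-negative B cells (x axis) for genes of the B-1 and innate-like and the follicular and naive lists compared in both libraries (y axis; 1 such follicular gene is not drawn), WT in blue and KO in red, filled where called. The medians over all compared genes are 0.93 and 1.67 for the first list and -0.84 and -0.87 for the second.

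Heavy chain usage differed with Sox5 in the same direction in both libraries. The ratio of Ighm to Ighd UMIs, the IgM and IgD heavy chains, was 28.1 with Sox5 and 5.55 without in WT, and 14.9 and 3.29 in KO. Cells whose most abundant heavy chain was Ighm were 90.8% (79 of 87) against 84.0% (420 of 500) in WT and 92.8% against 82.2% in KO. IgD-led cells were 8.05% (7 of 87) against 14.4% (72 of 500) and 5.41% against 16.7%. These shares are given without intervals. Switched isotypes together outnumbered Ighm and Ighd in 2 of 87 WT and 5 of 222 KO Sox5-positive cells with heavy chain UMIs. The log2 difference of Ighm was 1.09 in WT and 1.18 in KO. The WT value was -0.00 when the cell with the most Ighm UMIs was left out of each set. The ratios of Ighm to Ighd above include those cells.

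Among Sox5-positive cells, the KO library had less RNA of interferon-gamma response and MHC class I genes than the WT library, and more of single genes such as Ahnak, Cd69 and S100a4. In all, 238 genes (3.45% of 6897) were called higher in KO and 255 (3.7%) lower. With TMM factors the counts were 155 and 316, and with DESeq2 size factors 154 and 316. The median over all genes was 0.10 on the log2 scale, and 0.00 with TMM. Of the 12 leading genes in each direction, 1 higher and 4 lower ones kept their calls after thinning. With 1 library per group, the counting intervals do not include the spread between mice.

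Of the interferon-gamma response list, none of 19 genes compared was higher in KO, and 8 were called lower, with a median of -0.78. Gbp2, a guanylate-binding GTPase, had 118 CPM in WT and 26.0 CPM in KO, 4.53 times lower (2.59 to 8.22). The immunity-related GTPase gene Iigp1 had 91.1 and 5.47 CPM, 16.6 times lower (5.94 to 64.6). Serpina3g, a protease inhibitor, had 131 and 38.3 CPM.

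Igtp, Irgm1 and Socs1 were called lower as well, whereas Irf1 had 134 and 93.0 CPM and was not called. Nlrc5, the transactivator of MHC class I genes, had 228 and 95.8 CPM, 2.38 times lower (1.71 to 3.31). In cells thinned to 1000 UMIs, a median of 3 genes of the list were detected per WT cell and 1 per KO cell, and none was detected in 8.43% of WT and 34.4% of KO cells. Of the 8 calls, 6 were kept without Scrublet-marked cells, 5 without each gene's leading cell and 3 after thinning.

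MHC class I genes, whose products present peptides to CD8 T cells, were lower in KO for 16 of 19, with 2 called and a median of -0.50. H2-Q7 had 372 and 160 CPM, 2.33 times lower (1.81 to 3.00), though reads of such close relatives as the H2-Q, Gbp and Irg genes may be split between copies. B2m, the shared light chain, had 1776 and 1196 CPM, and H2-K1 had 1766 and 1268 CPM, both under the 2-fold limit. MHC class II genes did not follow: 9 of 11 were higher in KO, none was called, and the median was 0.30. H2-Aa had 1830 and 2219 CPM, and Cd74, the invariant chain, had 4702 and 5685 CPM.

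The lower interferon-gamma response was not particular to cells with Sox5. In Sox5-negative B cells none of 22 genes was higher in KO and 17 were called lower, with a median of -1.49, where 1.78% of all genes were called higher and 2.56% lower. In summed counts taken gene by gene, the KO to WT difference was less negative with Sox5 for 17 of 19 genes. The difference of differences was called for 2 of them, Gbp7 (2.37) and Serpina3g (1.12), where 2.32% of all genes were called higher and 3.0% lower. Gbp7 had 50.9 and 41.1 CPM in Sox5-positive cells. For MHC class I genes the median in Sox5-negative cells was -0.64.

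**Figure D5:**
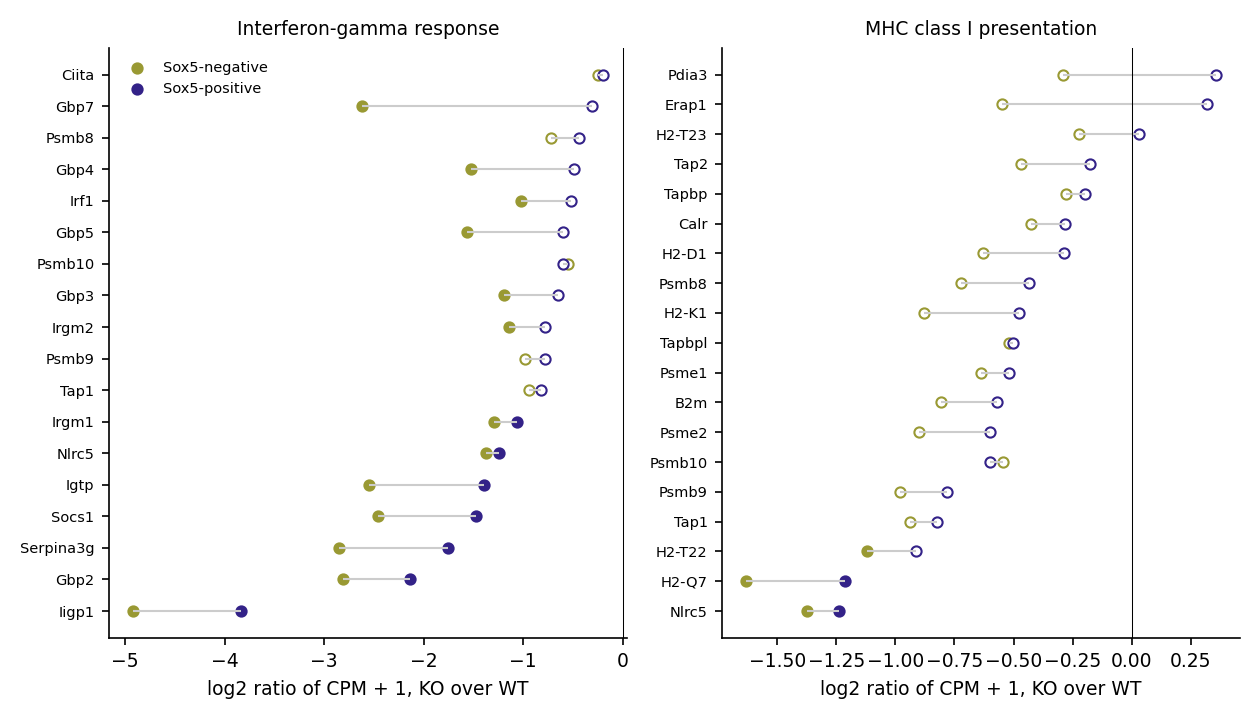
Log2 ratio of KO over WT (x axis) for genes of the interferon-gamma response and MHC class I lists compared in both cell sets (y axis; 1 such interferon-gamma gene is not drawn), in Sox5-positive cells (indigo) and Sox5-negative B cells (olive), filled where called. The interferon-gamma medians are -0.78 with Sox5, over 19 compared genes, and -1.49 without, over 22.

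B-1 and innate-like genes separated the libraries differently in cells with and without Sox5, but the Sox5-negative side changed sign under 2 alternatives. With Sox5, 15 of 21 were higher in KO, 2 were called higher and 1, Cd9, lower, with a median of 0.59. Over all genes 4049 of 6897 were higher, 3.45% were called higher and 3.7% lower. Of the 3 list calls, 2 were kept without Scrublet-marked cells and 0 after thinning. Without Sox5, 15 of 21 were lower in KO and 5 were called lower, with a median of -0.52, which turned to 1.06 among cells with at most 1% haemoglobin and to 0.09 in UMI-matched cells. The difference of differences was called higher for 4 of 19 genes, Ahnak, Lgals1, Pstpip2 and Fcrl5, where 2.32% of all genes were called higher. Ahnak had 249 CPM in WT and 638 CPM in KO with Sox5, 2.56 times higher (2.04 to 3.23).

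Cd69, an early activation marker that retains lymphocytes in tissue, had 26.8 and 76.6 CPM in Sox5-positive cells, 2.86 times higher in KO (1.45 to 6.29), and a log2 difference of 0.08 in Sox5-negative cells. WT cells with Sox5 had less Cd69 than WT cells without, which stood at 98.6 CPM. S100a4, a calcium-binding relative of S100a6, had 58.9 and 166 CPM, 2.81 times higher (1.77 to 4.65). Il9r, a cytokine receptor of memory and B-1 cells, had 88.4 and 35.6 CPM. S100a6 and Agbl1 themselves differed by 0.31 and 0.57 between the libraries on the log2 scale and were not called. Without Scrublet-marked cells S100a6 stood at 1.04 and was called.

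Several of the largest differences between the libraries came from few cells or few molecules. Cell division genes were lower in KO for 13 of 14, with 8 called and a median of -2.94. The median was 0.08 without dividing cells, which were 5 of 89 in WT and 3 of 223 in KO. Those cells were defined by genes of this same list, so the definition partly sets the change. Of 2968 Igha UMIs in WT, 2958 came from 1 cell, and of 2645 Iglc1 UMIs in KO, 2475 came from 1 cell. The log2 difference of Igha was -8.62, and -0.79 without that cell, and the difference of Iglc1 was 3.72, and 0.03 without its cell.

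The neutrophil genes Ngp, Chil3 and Lcn2 were lower in KO beside the lower neutrophil sum given above. The 9 genes of that sum were left out of the ranking, and 7 of them were called lower. Ngp had 2339 and 6.84 CPM, Chil3 429 and 6.84 CPM, and Lcn2 643 and 20.5 CPM. Cd177, Ifitm6 and Ly6a2 were also called lower, and not without the Scrublet-marked cells. Myb, a transcription factor of progenitors and dividing cells, had 142 and 12.3 CPM, a log2 difference of -3.42, and of -2.04 without dividing cells.

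Apart from Iglc1, the genes with the largest higher ratios in KO had 1 to 5 WT UMIs and wide intervals. Ap5m1, an adaptor protein subunit, had 1 UMI in WT and 36 in KO, a ratio of 18.4 (3.10 to 746). Lifr, the leukaemia inhibitory factor receptor, had 5 and 60 UMIs, a ratio of 6.13 (2.49 to 19.6). Abhd16a, Rbmx, Dapk3 and Eeig2 had 1 WT UMI each.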

How the data were processed

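The deposited matrices hold raw UMI counts per gene and barcode, written by Cell Ranger 8.0.1 per the file headers. Per the submitters' processing notes, the build was mm39 and the tools included Seurat 4.3.0 and a different release of Cell Ranger, 6.0.1. The labels' protocols name 10x 3' v3.1 chemistry. Whether intron reads were counted is not given in the sources used here. No cell annotation was used. From the counts of 33696 genes, UMIs were summed per library and cell set with pandas 2.3.3 and numpy 2.4.6, and levels are CPM of all UMIs in the set. Sums were 373260 and 730812 UMIs for WT and KO Sox5-positive cells, and 1359382 and 1792540 for Sox5-negative B cells. Log2 differences and the 2-fold limit used a pseudocount of 1 CPM. Printed ratios and times were taken from CPM without it, with exact conditional intervals at 95% (scipy 1.17.1). UMI counts are molecules, and intervals cover counting error only. Named genes were genes of the chosen lists and the 12 called genes in each direction with the largest ratio. The latter had at least 20 UMIs and a UMI in at least 5% of cells in the higher set. For the Sox5 comparison they were ranked by the smaller of the 2 libraries' differences. Mitochondrial, ribosomal protein, haemoglobin, immunoglobulin variable, T-cell receptor, predicted and sex-linked genes and the rule's own genes were not ranked. Genes of the marker lists of other cell types, such as the neutrophil list, were not ranked either. The members and lists were chosen with earlier results of these data known. Doublets were treated by the exclusion genes of the rule, with Scrublet (scanpy 1.11.5) as an alternative, which marked 15.3% of WT and 11.6% of KO barcodes it was run on. TMM factors came from edgeR 4.0.16 and size factors from DESeq2 1.42.0 in R 4.3.3, as scalings only. In all, 18 alternatives were run, on the Sox5, depth, haemoglobin, doublet, neutrophil and cell division limits, the scaling, the count minimum, the pseudocount, UMI matching and each gene's leading cell, and S100a6 was also recomputed without its 4 highest cells, some of them chosen after seeing the data. A few genes that the rules would name are not reported here, though they stay in the counts. The calling code was tested on simulated data.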

Additional observations from a re-analysis of the deposited data

Results flagged for a closer look

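For 3 of the named genes the KO library was higher than WT in Sox5-positive cells and lower in Sox5-negative B cells, with counting intervals that excluded equality in each cell set and for the difference. With 1 library per group the difference was not tested over samples. ENSMUSG00000121482 had 5.36 CPM in WT and 34.2 CPM in KO with Sox5, and 15.4 and 4.46 CPM without, a difference of 4.12 on the log2 scale that rests on 2 WT and 25 KO UMIs with Sox5. Fcrl5 had 198 and 311 CPM with Sox5 and 63.3 and 40.7 CPM without, a difference of 1.28. Its log2 difference in Sox5-negative cells was -0.62, and 0.02 in UMI-matched cells. S100a6 had log2 differences of 0.31 and -0.77, which are 1.08 apart. The second changed sign without Scrublet-marked cells (0.19), without cells over 2% neutrophil UMIs (0.41) and at most 1% haemoglobin (1.33).

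Barcodes with more than 10% haemoglobin UMIs were outside the rule, yet some that passed the B-cell gate in the KO library carried Sox5. The share was 18.4% (61 of 331, 14.4% to 23.03%) between 10% and 50% haemoglobin and 10.8% (15 of 139, 6.17% to 17.2%) above 50%. In WT it was 5.71% (2 of 35) and 0 of 11, the latter allowing up to 27.3%. Both KO shares were above those of T cells.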

How the results depend on the processing

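No paired analysis was possible because each group is 1 library and the labels carry no replicate numbers. Of the alternatives, the limit of 1% haemoglobin moved the KO to WT ratio of the Sox5-positive share from 1.26 to 3.96. It also moved the genes called higher and lower with Sox5 in both libraries from 51 and 34 to 20 and 12, the genes higher in KO from 238 to 129, and the genes lower in the difference between cells with and without Sox5 from 206 to 330. The cause was not tested. These counts and those that follow are totals and need not hold the same genes. Of the 129 and 330 at 1% haemoglobin, 48 and 82 were also called under the 10% limit. Thinning, which leaves fewer UMIs, gave 16 and 13 for the Sox5 comparison, 54 and 81 for KO over WT, and 37 and 62 for the difference (159 and 206 as reported). Fewer of the reported calls were kept by thinning: 10 and 6 for the Sox5 comparison, 16 and 30 for KO over WT, and 9 and 10 for the difference. A count minimum of 100 leaves fewer genes and gave 13 higher with Sox5, 29 and 33 for KO over WT, and 17 and 22. No count minimum gave 91 higher with Sox5, 501 lower in KO and 395 lower in the difference. A pseudocount of 10 gave 33 and 19 with Sox5, and 169 lower in KO. TMM and DESeq2 size factors gave 22 and 22 lower with Sox5, and 155 and 154 higher in KO. UMI matching gave 31 and 14. Requiring 2 Sox5 UMIs gave 62 lower. Without each gene's leading cell, which takes a larger share from the smaller WT set, the counts were 29 and 58 with Sox5, 125 lower in KO and 96 lower in the difference. Without dividing cells they were 156 lower in KO and 125 lower in the difference. The median of the B-1 and innate-like list in Sox5-negative cells, KO over WT, changed sign at 1% haemoglobin and with UMI matching. Depth limits single cells, where a median Sox5-positive cell had 2905 UMIs in WT and 2668 in KO.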

Other observations

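Memory and atypical B-cell genes were mostly higher with Sox5 in the KO library, 12 of 14, with Cd80, Nt5e and Tbx21 called. Over all genes of that library 4062 of 9014 were higher with Sox5, and 3.23% were called higher. In WT Cd80 was called, and that call was not kept after thinning. Of the 3 KO calls, 2 were kept against UMI-matched cells and 1 after thinning. Cd80, a ligand of CD28 on T cells, had 48.2 against 13.2 CPM in WT and 87.6 against 12.8 CPM in KO. Il5ra, a receptor of B-1 cells and eosinophils, was called in both libraries, with 91.1 against 44.9 CPM and 130 against 41.3 CPM. Il21r, the interleukin-21 receptor, was called lower in both, with 58.9 against 119 CPM and 46.5 against 99.3 CPM. Of the 2 WT calls, Il5ra and Il21r, 1 was kept without Scrublet-marked cells, 1 against UMI-matched cells and 0 after thinning. Of the 3 KO calls in their list of cytokines and receptors, 1 was kept against UMI-matched cells and 1 after thinning. Marginal zone genes did not move as a group: none was called in WT, and in KO Cd36 was higher (log2 difference 1.83) while Cr2 (-1.17) and Cd1d1 (-2.25) were lower. No gene of the 15 in the B-cell receptor signalling list was called. Il10, the cytokine of regulatory B cells, had no UMI, which allows a captured UMI in up to 3.37% of WT and 1.35% of KO cells and sets no limit on cells that express it.

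For AP-1 and immediate early genes, the KO over WT log2 difference was higher with Sox5 than without for 11 of 12. Junb and Cd69 were called, where 2.32% of all genes were called higher. In Sox5-positive cells alone 5 of these 12 were higher in KO, with a median of -0.09. In Sox5-negative cells 9 of 13 were lower in KO, 4 of them called, with a median of -0.95. The homing and adhesion list had a median of 0.62 in KO over WT with no gene called. With Sox5 over without, 5 of 15 of its genes were higher in WT (median -0.19) and 9 of 16 in KO (0.08). Of the plasma cell list, 4 of 7 genes were higher in KO and 2 were called lower, Jchain (log2 difference -3.13) and Xbp1 (-1.23), with a median near 0. Of the Jchain UMIs, 1571 of 2133 in WT and 420 of 477 in KO came from 1 cell each. Of the precursor B-cell list, 4 of 5 genes were called lower in KO, and the 31 Igll1 UMIs in WT came from 1 cell. Of those 4 calls, 1 was kept without dividing cells, 1 without each gene's leading cell and 0 after thinning, where the median was 0.10. All 5 type I interferon genes compared were lower in KO, 3 of them by the criterion, and none was called without Scrublet-marked cells.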
